A study of Mus musculus with 12 samples.

Results

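The genes described here take fatty acids through carnitine-dependent entry, mitochondrial and peroxisomal beta-oxidation and ketone body metabolism. They were chosen by symbol: each of 32 listed symbols matched a row of a table of 17175 genes, and all 32 passed the filter on low values. The products of 22 of them act in mitochondria, those of 7 in peroxisomes, and those of the other 3 (Slc22a5, Bbox1 and Acot1) at the plasma membrane or in the cytosol. RNA-seq was done on total RNA from mouse small intestine in 4 groups of 3 libraries: distal segment with a conditional knockout of Bmpr1a (Bmpr1a cKO), distal segment of WT mice, proximal segment of Bmpr1a cKO mice, and proximal segment of WT mice. Bmpr1a codes for a receptor of bone morphogenetic proteins (BMPs), and the study asked how BMP signalling in the intestinal epithelium relates to villus length along the gut. The Cre driver, the strain, the age, the exact position of each segment and whether animals were pooled are not given in the sources used here. The labels do not say whether replicate libraries were made from different mice, so the p-values below measure the spread between these libraries, and how much of it is technical is not known.

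Long-chain fatty acids enter mitochondria as carnitine esters, made at the outer membrane and turned back into acyl-CoA inside, and the beta-oxidation cycle then removes acetyl-CoA in repeated rounds of dehydrogenation, hydration, dehydrogenation and thiolysis. Peroxisomes run a parallel cycle that starts with an oxidase and handles very long, branched and bile acid side chains. Many genes of both organelles are targets of the fatty acid receptor PPARα. In the small intestine these pathways are a feature of absorptive enterocytes, which meet most dietary fat in the proximal segment.

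Recovered read totals were 15225731 to 17722756 in the 6 cKO libraries and 11242024 to 16381314 in the 6 WT libraries. Mitochondrially encoded genes took 9.95 to 27.7% of reads in cKO distal, 22.3 to 37.7% in WT distal, 9.75 to 14.8% in cKO proximal and 17.4 to 26.0% in WT proximal libraries, and cKO distal library 3 holds the 27.7%. Both cKO libraries numbered 1 had 0 reads of 4 Y-linked genes, of which every other library had 1251 to 2390, so the cKO libraries numbered 1 came from other mice than those numbered 2 and 3. Whole-gene Bmpr1a levels were 555 ± 98.7 in cKO distal and 532 ± 96.6 in WT distal libraries, and 943 ± 130 in cKO proximal and 940 ± 145 in WT proximal libraries (SD, n = 3 each; scaled counts). A whole-gene count includes exons that a conditional allele leaves in place, so it does not check the deletion. The BMP target Id1 stood at 112 to 232 in the 6 cKO libraries and 972 to 1650 in the 6 WT libraries. Smad6, an inhibitory Smad induced by BMP signals, stood at 3.73 to 25.5 in cKO and 181 to 479 in WT libraries.

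Values below are scaled counts: the authors' read counts (plus 1) divided by a size factor for each library. A gene was called changed when limma, fitted to log2(scaled count + 1) of all 17175 genes, gave a Benjamini-Hochberg adjusted p under 0.05. Fold changes are log2 differences between group means of log2(scaled count + 1), with their standard error (SE), and understate changes of genes with few reads.

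In the distal segment, 18 of the 32 genes rose in cKO and none fell, while 31 of 32 had a positive log2 fold change, and in the proximal segment 2 rose and 1 fell. None was called lower in the distal segment by DESeq2 or edgeR either, or in limma at an unadjusted p under 0.05, and those 3 readings had 19, 14 and 25 genes higher. The background over all genes was 13.3% called higher and 11.7% called lower in the distal segment, and 4.21% called higher and 4.05% called lower in the proximal segment. The median log2 fold change of the 32 genes in the distal segment was 0.66, against 0.06 over all genes, but -0.09 when the libraries were scaled to 14 epithelial genes, a scaling under which the median of all genes was -0.69. In the proximal segment the median of the 32 was 0.01, against 0.08 over all genes. Of the 22 mitochondrial genes, 8 rose in the distal segment (median 0.48, or -0.27 on the epithelial scaling). All 7 peroxisomal genes rose in the distal segment (median 0.92, or 0.17 on the epithelial scaling, under which 2 of the 7, Acox2 and Acaa1b, were still called). The 3 genes of the plasma membrane and cytosol rose there too.

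The genotype effect differed between the segments for 3 genes, Pdk4, Acox2 and Acaa1b, each with a more positive effect in the distal segment. Over all genes 0.175% had a higher and 0.402% a lower effect in the distal segment by the same test. The difference had a positive sign for 29 of the 32 genes, or 90.6%, against 49.8% of all genes, and the exceptions were Acadl, Acot1 and Acot2. On the epithelial scaling it was positive for 22 of the 32, against 24.1% of all genes, and the median difference was 0.12 in place of 0.52. With library number fitted as a block within each genotype, 5 of the 32 passed, against a background of 0.774% higher and 1.9% lower in that fit, the additional ones being Bbox1 (adjusted p = 0.0306) and Slc22a5 (0.0264). Without both cKO libraries numbered 1, and likewise without cKO distal library 1 alone, no gene of the 32 passed in limma (6 and 7 were at an unadjusted p under 0.05). Pdk4, Acox2 and Acaa1b then kept differences of 2.17, 2.85 and 2.0 on the log2 scale, with adjusted p = 0.154, 0.121 and 0.121, when both libraries were left out. How many of all genes passed in these fits with libraries left out is not given here. Between all the alternatives that count ranged from 2 to 594, against 99 in limma as scaled by the authors.

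**Figure D1:**
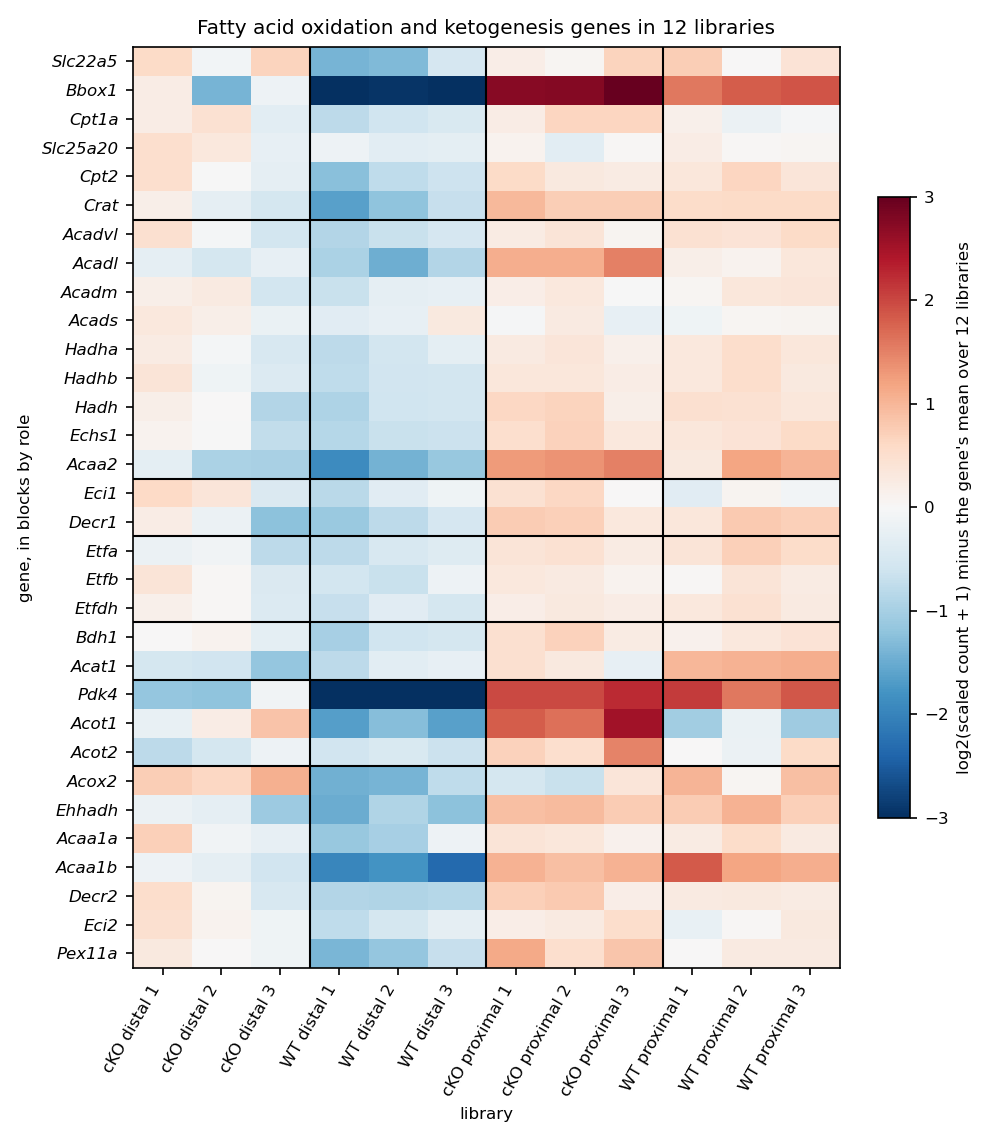
Each cell is the log2(scaled count + 1) of a gene in a library minus that gene's mean over the 12 libraries, with genes in blocks by role and libraries in 4 groups of 3. The WT distal columns are the bluest for most genes, and 18 of the 32 genes were called higher in cKO distal than in WT distal libraries as scaled by the authors, against 5 when scaled to epithelial genes.

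Carnitine supply and the carnitine shuttle comprised 6 genes, of which 5 rose in the cKO distal segment. None was called in the proximal segment by limma, DESeq2 or edgeR, with 2 higher at an unadjusted p under 0.05. Slc22a5, the plasma membrane carnitine transporter (mm10 chr11:53864542-53891660), had 2086, 1319 and 2231 in cKO distal libraries, against 535, 562 and 993 in WT distal libraries. The 2 groups did not overlap, and the log2 fold change was 1.45 ± 0.28 (limma adjusted p = 0.00215). It had 1606, 1458 and 2247 in cKO proximal and 2337, 1411 and 1860 in WT proximal libraries, which overlap (-0.07 ± 0.28, adjusted p = 0.899). The cKO distal libraries thus lay within the range of both proximal groups or just under it, and the WT distal libraries lay below every other group.

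Bbox1, the hydroxylase that completes carnitine synthesis (chr2:110262697-110314560), had the largest fitted change of the 32 genes in the distal segment. It had 184, 58.9 and 141 in cKO distal libraries, against 6.09, 19.5 and 3.16 in WT distal libraries, where the recovered read counts were 4, 18 and 2. The log2 fold change was 3.78 ± 0.49 (adjusted p = 0.000118), and it was 3.21 with 5 instead of 1 added before the logarithm. In the proximal segment it had 1044, 1063 and 1460 in cKO and 474, 550 and 580 in WT libraries. These proximal groups did not overlap either, yet the change of 1.14 ± 0.49 did not pass the test (adjusted p = 0.164).

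Cpt1a, the outer-membrane carnitine palmitoyltransferase that limits the rate of entry, averaged 2814 ± 722 in cKO distal and 1657 ± 194 in WT distal libraries (SD, n = 3 each) and rose by 0.74 ± 0.21 on the log2 scale (adjusted p = 0.0192), a call lost without cKO distal library 1 or 2 or WT distal library 1 or 2. Cpt2, which re-forms acyl-CoA in the matrix, averaged 2405 ± 682 in cKO distal and 1233 ± 266 in WT distal libraries and rose by 0.95 ± 0.22 (adjusted p = 0.00671). Crat, the carnitine acetyltransferase, rose by 0.97 ± 0.23 (adjusted p = 0.00749). The carnitine-acylcarnitine carrier Slc25a20, which joins the 2 palmitoyltransferase steps, did not pass in any of the comparisons, with 1592 ± 404 in cKO distal and 1151 ± 73.3 in WT distal libraries. None of Cpt1a, Cpt2 and Crat passed in the proximal segment, where their log2 fold changes were 0.52, -0.07 and 0.24. Crat shares 7.63% of its exon bases with an antisense gene, Gm16323, and the strand setting of the authors' counting is not given in the sources used here.

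The mitochondrial beta-oxidation cycle comprised 9 genes, of which 3 rose in the cKO distal segment in limma, 3 in DESeq2 and 0 in edgeR. Acadl, the long-chain acyl-CoA dehydrogenase, was among the 3 and rose in both segments. It had 2830, 2366 and 2849 in cKO distal libraries, against 1745, 1225 and 1843 in WT distal libraries (0.76 ± 0.20, adjusted p = 0.0119). It had 7193, 7231 and 9599 in cKO proximal libraries, against 3833, 3673 and 4301 in WT proximal libraries (1.01 ± 0.20, adjusted p = 0.00772). The groups did not overlap in either segment. The distal call was lost without WT distal library 2 (adjusted p = 0.0669) and without both cKO libraries numbered 1. It was also lost with the share of mitochondrially encoded reads as a covariate, in edgeR (adjusted p = 0.0673) and on the epithelial scaling (0.007, adjusted p = 0.981). The proximal call held with each of its libraries left out in turn but was lost on the epithelial scaling (0.66, adjusted p = 0.0881).

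Acadvl, the very-long-chain dehydrogenase of the inner membrane, averaged 1303 ± 468 in cKO distal and 807 ± 108 in WT distal libraries (0.64 ± 0.22, adjusted p = 0.047), and its groups overlapped. Reads of Acadvl cannot be told apart from those of Dvl2, its opposite-strand neighbour, over 42.9% of its exon bases. Hadhb, the thiolase subunit of the trifunctional protein, averaged 2267 ± 653 in cKO distal and 1485 ± 124 in WT distal libraries and rose by 0.57 ± 0.19 (adjusted p = 0.0408). Its partner subunit Hadha had a log2 fold change of 0.45 and did not pass (adjusted p = 0.135). The calls of Acadvl and Hadhb each ended when any of 4 libraries was left out (cKO distal 1 or 2, WT distal 1 or 2), with adjusted p up to 0.226 and 0.193. They also ended with library number fitted as a block (adjusted p = 0.0614 and 0.051). In genotype comparisons that block joined libraries of equal number across genotypes, which share only a number.

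Acaa2, the mitochondrial ketoacyl-CoA thiolase that closes the cycle, had 2927, 1848 and 1829 in cKO distal libraries, against 968, 1349 and 1632 in WT distal libraries. Every cKO distal value lay above every WT distal value, but the change of 0.74 ± 0.26 narrowly missed the threshold (adjusted p = 0.0562). Acaa2 in the proximal segment had 8729, 9175 and 10220 in cKO and 4398, 8069 and 7218 in WT libraries (0.56 ± 0.26, adjusted p = 0.206). The other 4 genes of the cycle did not pass in either genotype comparison. They are the medium-chain dehydrogenase Acadm, the short-chain dehydrogenase Acads, the hydratase Echs1 and the hydroxyacyl-CoA dehydrogenase Hadh, with distal log2 fold changes of 0.36, 0.19, 0.51 and 0.45.

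Neither mitochondrial gene for unsaturated fatty acids passed in a genotype comparison. The enoyl-CoA isomerase Eci1 had log2 fold changes of 0.60 in the distal and 0.48 in the proximal segment, and the dienoyl-CoA reductase Decr1 had 0.41 and -0.02. The electron transfer flavoprotein subunits Etfa and Etfb and their oxidoreductase Etfdh, which pass electrons from the acyl-CoA dehydrogenases to ubiquinone, had distal log2 fold changes of 0.19, 0.45 and 0.44, and none passed. Etfb shares 53% of its exon bases with Gm45233 on the same strand, so its counts are uncertain. Leaving out cKO distal library 3 brought the distal count to 28 of 32, and the cause was not tested. The additional genes were Acaa2, Acadm, Decr1, Echs1, Eci1, Etfb, Etfdh, Hadh, Hadha and Slc25a20. How many of all genes were called without that library is not given here. Between all the alternatives the distal count over all genes ranged from 1356 to 6463, against 4297 in limma as scaled by the authors.

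**Figure D2:**
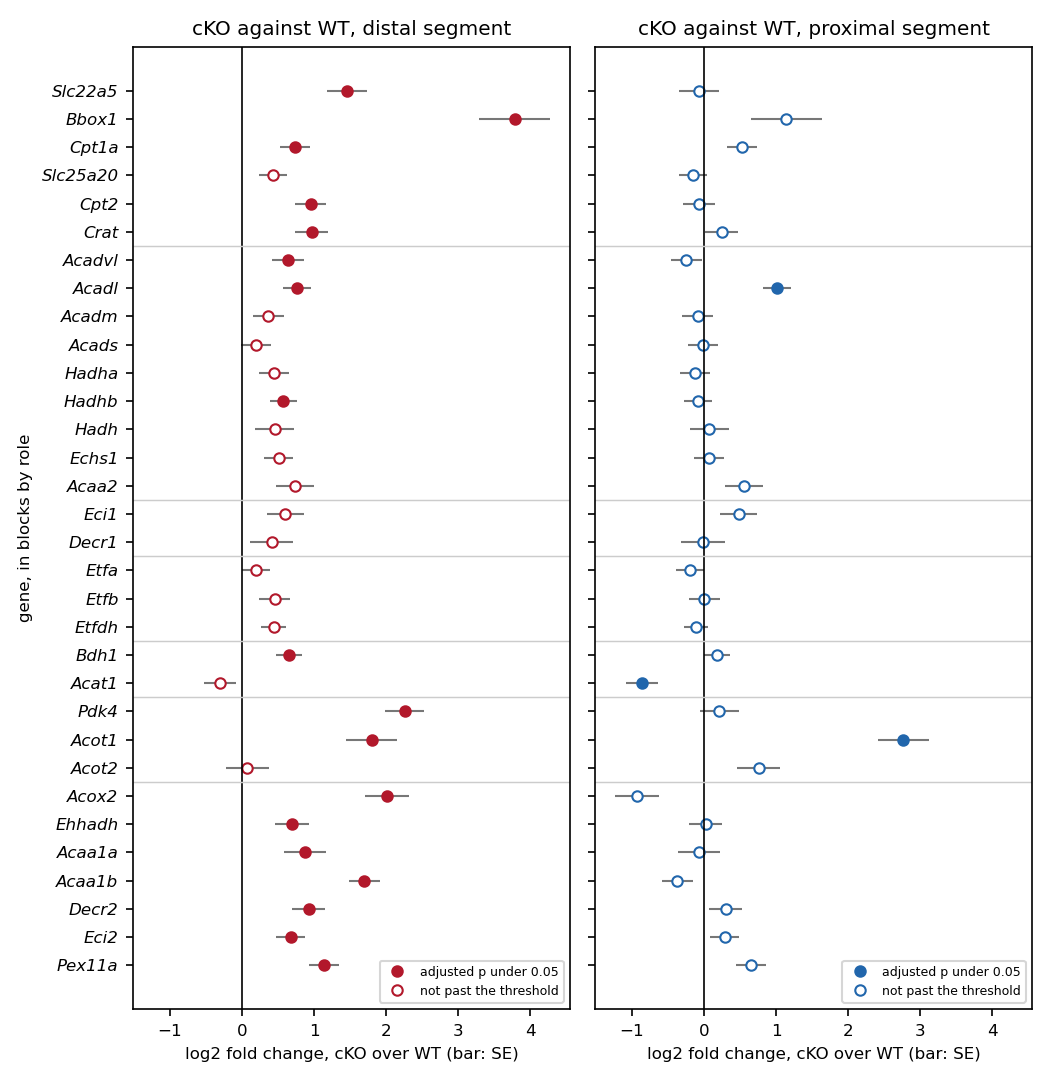
Points are limma log2 fold changes of cKO over WT with SE bars, in the distal and the proximal segment, filled where the adjusted p was under 0.05. In the distal segment 18 of 32 points are filled, all to the right of 0 as scaled by the authors (the median of the 32 was -0.09 when scaled to epithelial genes), and in the proximal segment Acot1 and Acadl are filled to the right and Acat1 to the left.

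Of the 2 ketone body genes, Bdh1 rose in the distal segment and Acat1 fell in the proximal segment. Bdh1, which interconverts acetoacetate and beta-hydroxybutyrate, averaged 1309 ± 185 in cKO distal and 837 ± 138 in WT distal libraries and rose by 0.65 ± 0.18 (adjusted p = 0.0179), a call lost without cKO distal library 1 or 2 or WT distal library 1. Bdh1 shares 13.7% of its exon bases with Gm15743 on the opposite strand. Acat1, the mitochondrial acetoacetyl-CoA thiolase, was the only gene of the 32 called lower in a genotype comparison by limma as scaled by the authors. It had 1891, 1663 and 1159 in cKO proximal libraries, against 2705, 2811 and 2887 in WT proximal libraries. The groups did not overlap and the log2 fold change was -0.86 ± 0.22 (adjusted p = 0.0309), lost without cKO proximal library 2 or 3 or WT proximal library 2 or 3 (adjusted p up to 0.12). In the distal segment Acat1 had 950, 911 and 608 in cKO and 788, 1089 and 1152 in WT libraries, which overlap (-0.30 ± 0.22, adjusted p = 0.349), and it fell there on the epithelial scaling.

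Pdk4, the pyruvate dehydrogenase kinase that spares glucose when fatty acids are burned (chr6:5483351-5496309), showed the change with the smallest p of the 32 genes in the distal segment. It had 81.6, 78.8 and 171 in cKO distal libraries, against 21.9, 19.5 and 21.1 in WT distal libraries. The WT distal values lay close together and every cKO distal value was above them, with a log2 fold change of 2.26 ± 0.27 (adjusted p = 7e-05). Proximal libraries had 725, 730 and 874 in cKO and 795, 557 and 677 in WT, which overlap (0.21 ± 0.27, adjusted p = 0.671). The genotype effect in the distal segment exceeded that in the proximal segment by 2.05 ± 0.38 (adjusted p = 0.0339), a call that ended when any of 7 libraries was left out, namely all 3 cKO proximal libraries, WT proximal 1 and 2, cKO distal 1 and WT distal 2 (adjusted p up to 0.0998), and that was at adjusted p = 0.123 on the epithelial scaling and 0.0503 in edgeR.

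The acyl-CoA thioesterases Acot1 (cytosolic) and Acot2 (mitochondrial) release free fatty acids from acyl-CoA, lie next to each other on chromosome 12 and are close paralogs. Their longest coding transcripts are 94.3% identical over 1330 aligned bases, and 12% of the 100-base windows of Acot1 occur unchanged in Acot2, so counting may have moved reads between them. Acot1 (chr12:84009490-84018371) rose in both segments. It had 60.4, 82.1 and 129 in cKO distal libraries, against 21.9, 28.8 and 22.1 in WT distal libraries (1.80 ± 0.35, adjusted p = 0.0024). It had 252, 225 and 406 in cKO proximal libraries, against 33.7, 61.7 and 33.3 in WT proximal libraries (2.76 ± 0.35, adjusted p = 0.000581), the largest proximal change among the 32 genes. Neither segment's groups overlapped, and both calls held with each library left out in turn, whereas on the epithelial scaling the distal log2 fold change was 1.05 and not past the threshold. Acot2 (chr12:83987861-83993873) had 59.3, 71.4 and 92.5 in cKO distal and 68.2, 75 and 65.4 in WT distal libraries, with 167, 146 and 291 in cKO proximal and 104, 90.9 and 154 in WT proximal libraries. Its groups overlapped in both segments and it passed in neither (0.08 and 0.76, adjusted p = 0.885 and 0.135).

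Acot1 was called between genotypes and Acot2 was not, though these paralogs were not tested against each other. Pdk4 passed the limma test of a difference between segments. For these reasons the sequences before the start sites of Acot1, Acot2 and Pdk4 are shown. They are RefSeq's (GRCm38.p6, the assembly of mm10) and run from 250 to 32 bases before the start, at chr12:84009252-84009470 on the plus strand for Acot1, chr12:83987611-83987829 on the plus strand for Acot2 and chr6:5496310-5496528 on the minus strand for Pdk4. Capitals mark a CCAAT box (CCAAT, or ATTGG where it lies on the other strand).
Acot1: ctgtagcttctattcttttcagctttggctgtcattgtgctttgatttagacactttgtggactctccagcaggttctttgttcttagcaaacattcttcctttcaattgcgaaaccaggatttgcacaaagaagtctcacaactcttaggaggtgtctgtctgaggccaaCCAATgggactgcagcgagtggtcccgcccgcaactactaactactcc
Acot2: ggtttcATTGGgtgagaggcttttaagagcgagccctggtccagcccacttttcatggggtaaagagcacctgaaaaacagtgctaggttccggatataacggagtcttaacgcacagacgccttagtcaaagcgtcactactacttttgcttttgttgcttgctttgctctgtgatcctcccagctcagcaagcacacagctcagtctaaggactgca
Pdk4: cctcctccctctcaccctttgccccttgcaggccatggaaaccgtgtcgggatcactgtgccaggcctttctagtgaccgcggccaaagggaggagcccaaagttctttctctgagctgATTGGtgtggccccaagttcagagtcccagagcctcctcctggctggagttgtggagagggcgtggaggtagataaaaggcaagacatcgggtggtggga
Each of the 3 windows holds a CCAAT box, in the Acot1 window near the start and in the Acot2 window near the far end. The Acot1 and Acot2 windows, aligned end to end, were 57.3% identical over 192 aligned bases. The 94.3% of their transcripts covers only the best-matching stretch, so these shares cannot be compared.

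Peroxisomal oxidation comprised 7 genes, all higher in the cKO distal segment in limma and DESeq2 and 6 of them in edgeR. In the proximal segment limma and edgeR called none and DESeq2 called 1 lower, with 1 higher and 1 lower at an unadjusted p under 0.05. Acaa1b, a ketoacyl-CoA thiolase (chr9:119148023-119157093), had 427, 394 and 322 in cKO distal libraries, against 122, 137 and 93.8 in WT distal libraries. The log2 fold change was 1.70 ± 0.21 (adjusted p = 9.23e-05). Proximal libraries had 982, 895 and 985 in cKO and 1699, 1082 and 1018 in WT libraries, where every cKO value was the lower but the change of -0.37 ± 0.21 did not pass (adjusted p = 0.299). The effects differed between the segments by 2.07 ± 0.30 (adjusted p = 0.015), lost without cKO distal library 1 (adjusted p = 0.051) and on the epithelial scaling (adjusted p = 0.0521). Its paralog Acaa1a (chr9:119339676-119350299), with transcripts 95.7% identical over 1471 aligned bases, was the more abundant thiolase. Of the 100-base windows of Acaa1b, 22.6% occur unchanged in Acaa1a, so counting may have moved reads between them. Acaa1b also shares 11.4% of its exon bases with Dlec1 on the opposite strand, and Acaa1a shares 6.57% with Myd88 on its opposite strand. Acaa1a averaged 7799 ± 2992 in cKO distal and 4252 ± 1695 in WT distal libraries, which overlap (0.88 ± 0.29, adjusted p = 0.04, up to 0.185 when cKO distal 1 or 2 or WT distal 1 or 2 was left out, and 0.0596 with the block across genotypes). It had a proximal log2 fold change of -0.07. In the window before the Acaa1b start, shown because the gene's distal effect was among the 3 that differed between segments, capitals mark 2 CCAAT boxes on the minus strand of the sequence printed (chr9:119157125-119157343, minus strand of the chromosome, from 250 to 32 bases before the start).
Acaa1b: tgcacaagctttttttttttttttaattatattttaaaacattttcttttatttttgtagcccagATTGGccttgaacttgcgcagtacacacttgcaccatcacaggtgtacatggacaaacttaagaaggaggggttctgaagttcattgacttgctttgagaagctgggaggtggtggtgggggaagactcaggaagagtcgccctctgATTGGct

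Acox2, the peroxisomal oxidase for branched-chain and bile acid side chains (chr14:8225511-8259353), had the largest difference between segments among the 32 genes. It had 509, 472 and 639 in cKO distal libraries, against 112, 116 and 178 in WT distal libraries (2.01 ± 0.31, adjusted p = 0.000405). Proximal libraries had 212, 193 and 392 in cKO and 616, 317 and 571 in WT libraries. The proximal groups overlap, with the lowest WT value under the highest cKO value, and the change of -0.93 ± 0.31 did not pass (adjusted p = 0.0783). It passed in DESeq2 (adjusted p = 0.0261), on the epithelial scaling (-1.28, adjusted p = 0.0185) and with the block across genotypes (adjusted p = 0.0267). That block joins libraries that share only a number. The effects differed by 2.94 ± 0.43 (adjusted p = 0.015), a call lost without cKO distal library 1 or WT distal library 2 (adjusted p = 0.051 at most) and kept on the epithelial scaling (adjusted p = 0.0178).

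Pex11a, which drives division of peroxisomes, had 911, 748 and 673 in cKO distal libraries, against 285, 332 and 456 in WT distal libraries (1.13 ± 0.21, adjusted p = 0.0016). It had 1631, 1039 and 1324 in cKO proximal and 745, 884 and 885 in WT proximal libraries, which did not overlap, with a change of 0.65 ± 0.21 that did not pass (adjusted p = 0.073). Within each segment, every cKO library had more Pex11a than every WT library. Ehhadh, the bifunctional hydratase and dehydrogenase, had 2028, 1913 and 1077 in cKO distal libraries, against 822, 1230 and 982 in WT distal libraries. cKO distal library 3 lay inside the WT range, and the change was 0.69 ± 0.23 (adjusted p = 0.0426), lost without cKO distal library 1 or 2 or WT distal library 1 or 3. Ehhadh in the proximal segment had 4272, 4405 and 3858 in cKO and 3896, 4751 and 3762 in WT libraries, a log2 fold change of 0.02. The auxiliary enzymes Decr2, a dienoyl-CoA reductase, and Eci2, an enoyl-CoA isomerase, rose in the distal segment by 0.92 ± 0.23 (adjusted p = 0.00878) and 0.68 ± 0.20 (adjusted p = 0.0254). Decr2 averaged 703 ± 237 in cKO distal and 356 ± 8.2 in WT distal libraries, and Eci2 averaged 653 ± 144 in cKO distal and 406 ± 69.6 in WT distal libraries, with the Eci2 call lost without cKO distal 1 or 2 or WT distal 1 or 2.

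**Figure D3:**
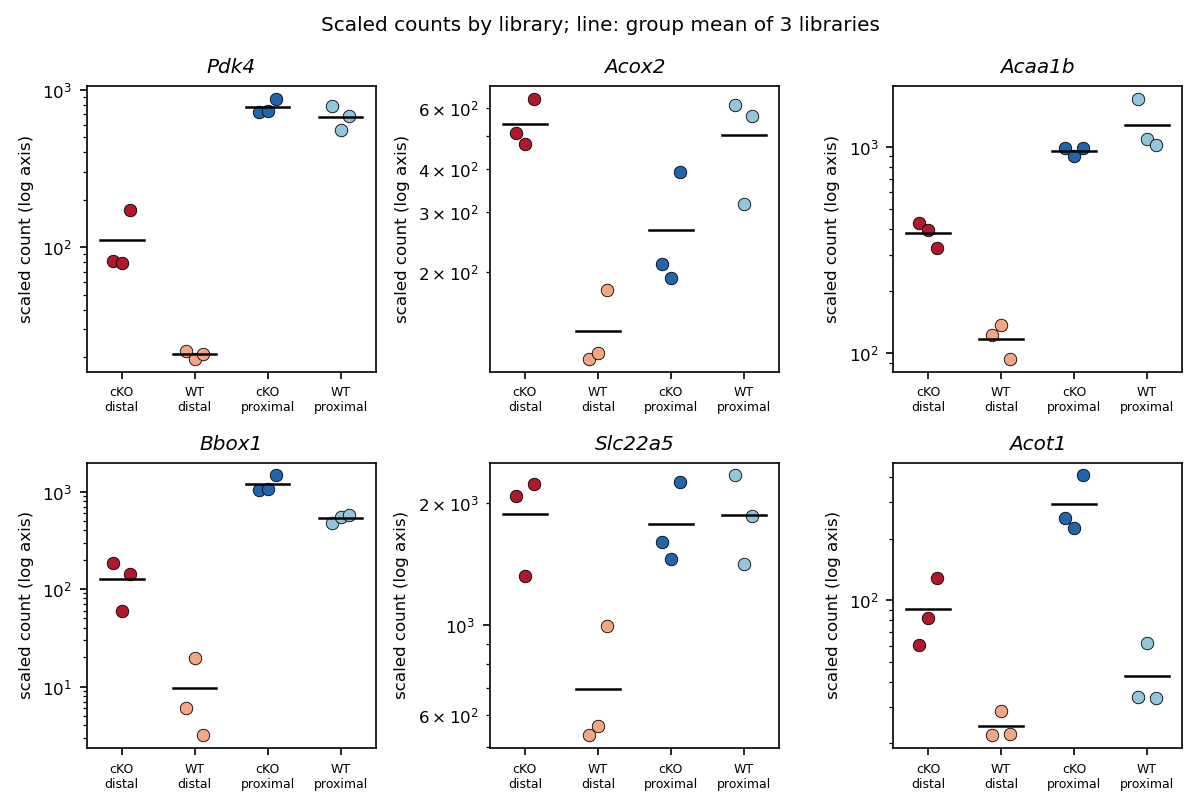
Points are scaled counts of 6 genes in each library on log axes, with the mean of the 3 libraries of a group as a line. The WT distal libraries lie lowest for all 6 genes, and the cKO distal libraries of Acox2 (472 to 639) lie above those of cKO proximal tissue (193 to 392).

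Distal and proximal tissue were compared within each genotype to describe the normal gradient of these genes and the same gradient in cKO. In WT mice 25 of the 32 genes fell in the distal segment and none rose in limma, DESeq2, edgeR or at an unadjusted p under 0.05, against a background of 12.2% lower and 11.9% higher over all genes. The median log2 fold change was -1.13, against 0.04 over all genes. By compartment, 17 of the 22 mitochondrial genes (median -1.06) and 6 of the 7 peroxisomal genes (median -1.25) fell. Cpt1a, Slc25a20, Acads, Eci1, Acot1, Acot2 and Eci2 did not pass. With the block 28 fell (background 14.3% lower and 14.4% higher), Cpt1a (adjusted p = 0.0486), Acot1 (0.0491) and Eci2 (0.0414) being added. In cKO mice 13 of the 32 fell in the distal segment and 1, Acox2, rose, against a background of 6.36% lower and 4.16% higher, and the median was -0.52. With the block 16 fell there and Acox2 rose (background 8.89% lower and 6.25% higher), Bdh1 (adjusted p = 0.0333), Decr1 (0.00559) and Hadh (0.0447) being added. Without the block 8 of 22 mitochondrial genes (median -0.46) and 3 of 7 peroxisomal genes (median -0.52) fell. Without both cKO libraries numbered 1 the cKO count was 7 in place of 14, all lower.

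The distal mean as a share of the proximal mean had a median over the 32 genes of 70.3% in cKO and 45.7% in WT, against 99.6% in cKO and 104% in WT over all genes. On the epithelial scaling the median log2 fold changes of the 32 were -0.84 in cKO and -1.04 in WT, against -0.33 in cKO and 0.13 in WT over all genes. The 2 genotype comparisons and the 2 segment comparisons share libraries, so a gene low in WT distal tissue enters more than 1 of them, and the values of each group are set side by side here. Bbox1 stood at 10.8% of its proximal mean in cKO distal and 1.79% in WT distal tissue, the steepest gradients in both genotypes (log2 fold changes -3.33 ± 0.49, adjusted p = 0.000468, in cKO and -5.98 ± 0.49, adjusted p = 1.66e-06, in WT). Pdk4 stood at 14.2% in cKO and 3.08% in WT (-2.89 ± 0.27 and -4.94 ± 0.27, adjusted p = 8.73e-06 and 8.87e-08). Both genes keep a proximal excess in cKO that is smaller than in WT, although the difference for Bbox1 did not pass the test without the block (adjusted p = 0.0936).

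Acaa1b stood at 39.9% of its proximal mean in cKO and 9.27% in WT (-1.33 ± 0.21 and -3.40 ± 0.21, adjusted p = 0.000927 and 2.17e-07). Ehhadh stood at 40% in cKO and 24.5% in WT (-1.37 ± 0.23 and -2.04 ± 0.23, adjusted p = 0.00144 and 3.46e-05). Acox2 was the gene with a gradient past the threshold in opposite directions, at 203% in cKO (1.08 ± 0.31, adjusted p = 0.0376) and 27% in WT (-1.85 ± 0.31, adjusted p = 0.000722). The rise of Acox2 in cKO was lost when any of 5 of its 6 libraries was left out (adjusted p up to 0.146), the exception being cKO proximal library 3, and it was lost on the epithelial scaling (0.77, adjusted p = 0.105), under which none of the 32 rose there. Slc22a5 had no gradient past the threshold in cKO, at 106% (0.07 ± 0.28, adjusted p = 0.91), and fell to 37.3% in WT (-1.45 ± 0.28, adjusted p = 0.00213).

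Acaa2 and Acadl fell in the distal segment in both genotypes. Acaa2 stood at 23.5% in cKO and 20.1% in WT (-2.12 ± 0.26 and -2.30 ± 0.26, adjusted p = 0.000121 and 3.86e-05), and the difference between these gradients was 0.18 ± 0.37. Acadl stood at 33.5% in cKO and 40.8% in WT (-1.57 ± 0.20 and -1.31 ± 0.20, adjusted p = 0.000119 and 0.000331), a difference of -0.26 ± 0.28. Acot1 stood at 30.7% in cKO (-1.71 ± 0.35, adjusted p = 0.00604) and 56.6% in WT (-0.75 ± 0.35, adjusted p = 0.147), and Acot2 at 37% in cKO (-1.38 ± 0.30, adjusted p = 0.00849) and 59.8% in WT (-0.70 ± 0.30, adjusted p = 0.109), differences that did not pass (adjusted p = 0.428 and 0.524). These 3 genes, Acadl, Acot1 and Acot2, were the ones with a lower distal share in cKO than in WT.

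**Figure D4:**
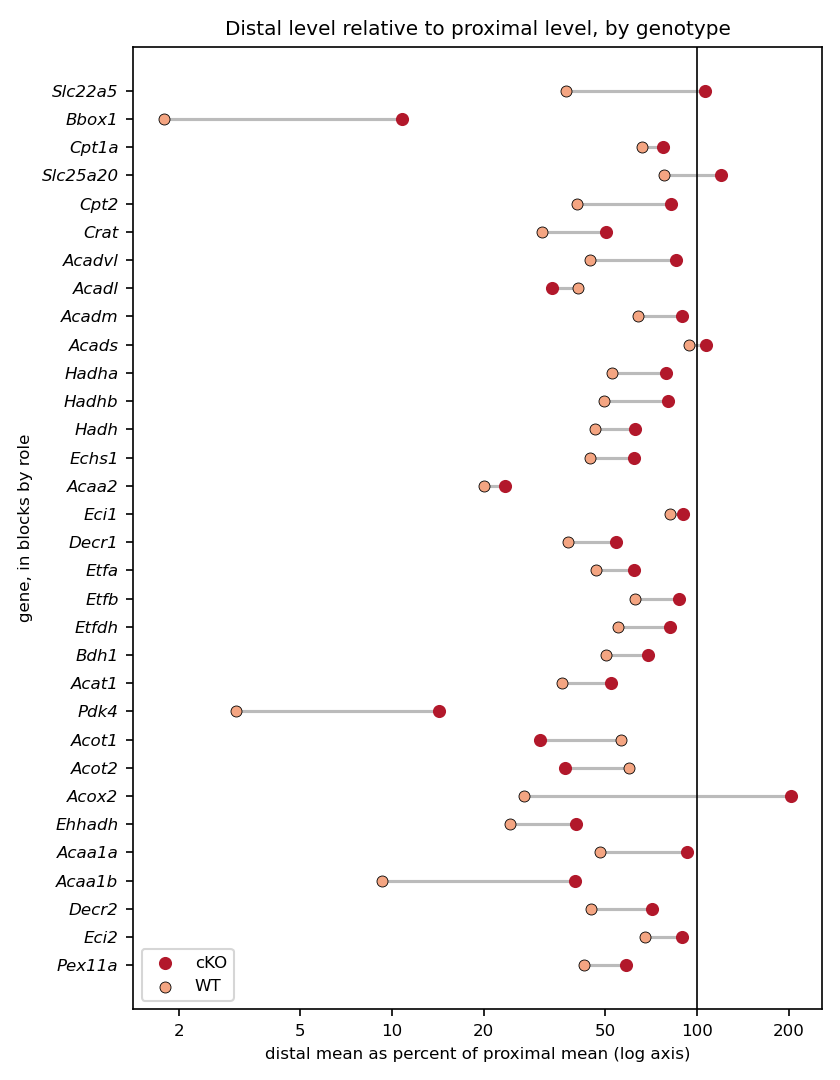
For each gene, points give the distal mean as a percent of the proximal mean in cKO and in WT on a log axis, with a vertical line at 100%. The cKO point lies to the right of the WT point for 29 of the 32 genes, the exceptions being Acadl, Acot1 and Acot2 (22 of 32 had a positive difference on the epithelial scaling), and Acox2 reaches 203% in cKO against 27% in WT.

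To compare levels between genes, recovered reads were scaled for exon length (GENCODE M21) and library total to reads per kilobase and megaread (RPKM). The highest level was that of Acaa2 in the proximal segment, with a mean of 366 RPKM in cKO and 256 RPKM in WT, followed in cKO by Acadl (237 RPKM, against 115 RPKM in WT) and in WT by Hadh (138 RPKM, against 146 RPKM in cKO). In the distal segment the order changed: Acaa1a led in cKO distal tissue at 105 RPKM (65.9 RPKM in WT distal), and Etfb led in WT distal tissue at 83.0 RPKM (101 RPKM in cKO distal). The Etfb level is uncertain because of the exon bases it shares with Gm45233. Library totals here include mitochondrially encoded reads, whose share differed between the groups, which limits comparisons of RPKM between groups. Bbox1 was the lowest in WT distal tissue at 0.135 RPKM, and Acot1 the lowest in cKO distal tissue at 1.41 RPKM. Added together, the 32 genes took 0.379 to 0.448% of nuclear-encoded reads in cKO distal and 0.366 to 0.372% in WT distal libraries, with 0.617 to 0.628% in cKO proximal and 0.565 to 0.729% in WT proximal libraries.

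Lists of related genes describe the setting of these changes. For all of them, the shares called over all genes in limma apply. These were 13.3% higher and 11.7% lower in the distal and 4.21% higher and 4.05% lower in the proximal genotype comparison. For distal against proximal tissue, 6.36% were lower in cKO and 12.2% in WT. Some list counts lie near or below these shares. Of 47 other fatty acid oxidation and ketone body genes, 14 were higher and 2 lower in cKO distal than WT distal tissue, and 3 were higher and 2 lower in cKO proximal than WT proximal tissue. Against proximal tissue, 14 fell in cKO distal and 26 in WT distal tissue. In the distal segment the acyl-CoA synthetases Slc27a2 and Acsl1 rose by 2.21 and 1.11, the peroxisomal CoA diphosphatase Nudt7 by 1.0 and the branched short-chain dehydrogenase Acadsb by 1.07 on the log2 scale. The 2 genes called lower in that segment are not named here, and the lowest log2 fold change of the 47 was -1.46. Slc25a17, a peroxisomal carrier of cofactors, rose by 1.25 in the proximal segment, and Oxct1, the enzyme that activates ketone bodies for oxidation, by 0.78. The cytosolic acetyl-CoA thioesterase Acot12 had a log2 fold change of -0.92 there (adjusted p = 0.015).

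Among 17 lipid-sensing nuclear receptors and coactivators, the cKO distal segment had 4 higher and 1 lower, and none passed in limma or edgeR in the proximal segment (1 higher in DESeq2, and 1 higher and 1 lower at an unadjusted p under 0.05). Ppara, the receptor behind many of these genes, averaged 665 ± 127 in cKO distal and 256 ± 124 in WT distal libraries (1.51, adjusted p = 0.00872). The receptor or coactivator called lower is not named here, and the lowest distal log2 fold change of the 17 was -0.65. Of 22 other PPAR target genes, 5 were called higher and 1 lower in cKO distal tissue, and 1 higher and 2 lower in cKO proximal tissue. The PPAR targets called lower are not named here, and the lowest distal log2 fold change of the 22 was -1.46. Fabp1, the fatty acid binding protein of proximal enterocytes, averaged 8805 ± 3545 in cKO distal and 1696 ± 152 in WT distal libraries (2.30). Cyp4a10, a fatty acid omega-hydroxylase and PPARα target, stood at 1.69 ± 1.29 in cKO distal and 2.13 ± 1.72 in WT distal libraries, with 176 ± 79.9 in cKO proximal and 302 ± 55.7 in WT proximal libraries, and passed in neither genotype comparison.

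Of 17 peroxisome biogenesis genes, 8 rose in the cKO distal segment, among them the import genes Pex13 (0.80), Pex16 (1.14) and Pex26 (0.58), and in the proximal segment limma called 1 higher, Pex26 (3 in DESeq2). Of 30 nuclear-encoded respiratory chain genes, 7 rose in the cKO distal segment (list median 0.52), none was called in the proximal segment by limma, DESeq2 or edgeR or at an unadjusted p under 0.05, and 25 fell in WT distal against WT proximal tissue. Of 27 citrate cycle and pyruvate dehydrogenase genes, 1 rose in the distal segment, Dlat, while Pdk1 rose by 1.04 and Pdk3 had a log2 fold change of -1.07 in the proximal segment. On the epithelial scaling the distal medians of the 6 lists were all below 0, from -0.65 for the receptors to -0.17 for peroxisome biogenesis, against -0.69 over all genes. For the difference between the segments no gene of these 6 lists passed in limma or edgeR, and in the list of other fatty acid oxidation genes DESeq2 called 6 higher and 12 were higher and 1 lower at an unadjusted p under 0.05. DESeq2 also called 1 other PPAR target higher and 1 lower, and 1 citrate cycle gene higher.

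Marker levels of several cell types differed between the genotypes (the shares called over all genes are given above). Epithelial markers rose in the cKO distal segment for 8 of 14 genes and 1 fell, and their summed level was 211166 to 324900 in cKO distal and 127320 to 208403 in WT distal libraries. Enterocyte markers rose for 7 of 16, and their sum was 533796 to 902404 in cKO distal and 201547 to 492643 in WT distal libraries. Markers of B and plasma cells fell for 10 of 12 and rose for 2 there (5934 to 8414 in cKO and 14138 to 28671 in WT), myeloid markers fell for 5 of 10, T cell markers for 4 of 11 and crypt and proliferation markers for 6 of 12, with 1 crypt marker higher. In the proximal segment 3 of 14 epithelial markers rose and limma called 0 of 16 enterocyte markers (1 higher and 1 lower in DESeq2, 0 in edgeR, 2 higher and 1 lower at an unadjusted p under 0.05), while 6 of 12 B and plasma cell and 6 of 10 myeloid markers fell. By limma, fibroblast, smooth muscle, endothelial and pancreatic acinar lists had at most 1 gene called in either direction in each genotype comparison. DESeq2 called 2 of 9 fibroblast markers lower in the distal and 5 in the proximal segment, 2 of 9 smooth muscle markers lower in the proximal segment, and 4 of 7 acinar markers lower in the distal segment (2 in edgeR). The fibroblast list had medians of -0.99 in the distal and -1.50 in the proximal segment. Of the neuronal (5 of 9 measured) and adipocyte (3 of 8 measured) markers none was called by limma, DESeq2 or edgeR (1 neuronal gene was higher in the distal and 1 adipocyte gene lower in the proximal segment at an unadjusted p under 0.05). In bulk libraries fewer cells of a type and less RNA per cell cannot be told apart. The part of cell makeup in the changes of the 32 genes was not tested, beyond the scaling to the 14 epithelial genes.

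On that scaling 5 of the 32 genes rose in the cKO distal segment, Bbox1 (3.03), Pdk4 (1.51), Acox2 (1.26), Acaa1b (0.95) and Slc22a5 (0.70), and Acat1 had a log2 fold change of -1.05 and was called lower. The 32 genes kept the same distance from the median of all genes, 0.60, because the scaling moves every gene equally. With the share of mitochondrially encoded reads as a covariate, 6 of the 32 rose, the same 5 and Acot1. The count over all genes in that fit is not given here. The median of the 32 was then 0.35 in the distal and -0.27 in the proximal segment (-0.02 and -0.03 over all genes). The part of the mitochondrially encoded share in the other changes was not tested.

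**Figure D5:**
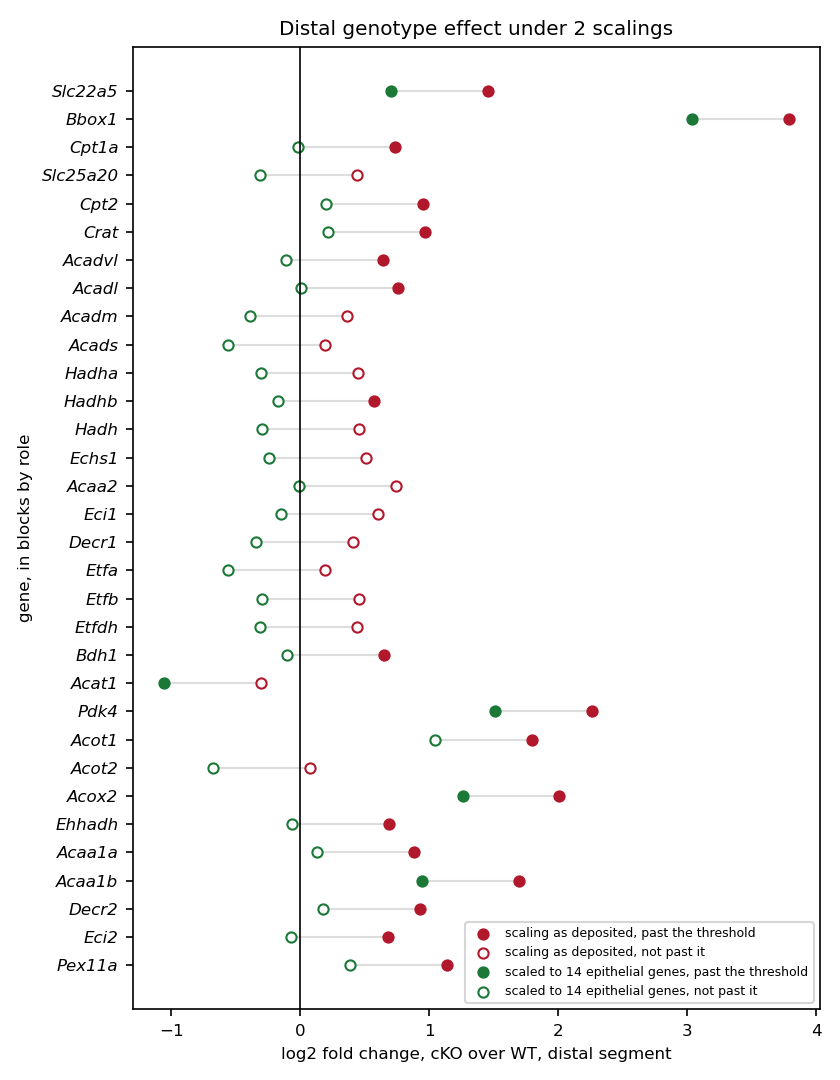
Points are distal log2 fold changes of cKO over WT for each gene, in red as scaled by the authors and in green as scaled to 14 epithelial genes, filled where the adjusted p was under 0.05. Every green point lies 0.75 to the left of its red point, and 5 genes are filled to the right of 0 under both scalings, Slc22a5, Bbox1, Pdk4, Acox2 and Acaa1b, while Acat1 is filled to the left under the epithelial scaling.

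Sequence motifs were searched on both strands in the 250 bases before RefSeq start sites, where 28 of the 32 genes had 30 windows. The DR1 element of PPAR and other receptor pairs, searched as an exact tandem pair of AGGTCA with 1 base between, was in none of the 30 windows and in 0.03% of 32851 windows of all genes. AGGTCA itself, which lies inside DR1, was in 4 windows (Acadm, Acadvl, Cpt1a and Echs1), or 13.3%, against 14.02% of all windows. The GC-rich letters GGCGCC, which Smad proteins can bind, were in 3 windows (Acads, Decr2 and Slc22a5), or 10%, against 9.59%. The CCAAT box was in 13 windows, or 43.3%, against 33.9% of all windows. These shares describe the windows only.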

How the data were processed

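Per the labels' protocols, Trizol was used for total RNA and an Ovation RNA-Seq System V2 kit (NuGEN) for the libraries. STAR, with no version, the mm10 genome and DESeq2 1.28.1 are named in the submitters' processing notes. The values in the table deposited by the authors are a signal per gene and library: all 206100 were whole multiples of a step of their column within 0.001 steps, and whole reads were recovered as the value divided by the step, minus 1. The log2 fold change, its standard error, the Wald score and the p-value that the authors deposited set cKO proximal over WT distal tissue (they lie a median of 0.00169 from that contrast computed here, against 0.395 for the next closest) and were not used further. Of the deposited columns of sample values, 0 were left unmatched.

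A limma 3.58.1 model (R 4.3.3, moderated with a mean trend) was fitted to log2(value + 1), a mean for each of the 4 groups over all 12 libraries, and adjusted p under 0.05 (Benjamini-Hochberg over 17175 genes) was a call. The filter (at least 1 in 3 libraries) removed 0 genes. The scripts were tested on simulated data. The genotypes were compared within a segment, the segments within a genotype, and the genotype effects between segments. Alternatives were DESeq2 1.42.0 and edgeR 4.0.16 on the recovered reads, other pseudocounts and filters, TMM and epithelial scalings, a covariate, library blocks, and leaving libraries out. The lowest read count of the 32 genes in any library was 2.

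The 32 genes and all gene lists were chosen with earlier results of these data known. Values of every library are given for genes that passed in the difference or in both genotype comparisons, for the 6 with the smallest p in each genotype comparison and the 4 with the smallest in each segment comparison. Other lists name up to 4 genes per comparison, smallest p first, and Cyp4a10 is given in all groups for both comparisons. Some genes that this rule names are not reported here.

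Libraries numbered 1 to 3 share sample names between segments in the labels. Deviations from group means over 11490 genes correlated between segments at 0.186, 0.341 and 0.477 in cKO and 0.330, 0.316 and 0.326 in WT, so the numbers were taken to pair segments within a genotype. Between genotypes they share only a number, with correlations from -0.228 to 0.162. In the genotype comparisons the block used these numbers all the same, joining libraries of equal number across genotypes. Depth was 11242024 to 17722756 reads per library.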

Additional observations from a re-analysis of the deposited data

Results flagged for a closer look

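For 3 of the 32 genes the genotype effect differed between the distal and the proximal segment in limma, by a test of that difference. Pdk4 had a distal effect larger by 2.05 on the log2 scale, with 111 ± 52.6 in cKO distal and 20.8 ± 1.21 in WT distal libraries, and 776 ± 84.7 in cKO proximal and 676 ± 119 in WT proximal libraries (SD, n = 3 each; scaled counts). Acox2 had a distal effect larger by 2.94, with 540 ± 87.8 in cKO distal and 135 ± 37.1 in WT distal libraries, and 266 ± 110 in cKO proximal and 501 ± 161 in WT proximal libraries. Acaa1b had a distal effect larger by 2.07, with 381 ± 53.6 in cKO distal and 117 ± 21.8 in WT distal libraries, and 954 ± 50.9 in cKO proximal and 1266 ± 376 in WT proximal libraries. All 3 genes were higher in every cKO distal library than in any WT distal library, but the test that picked them used these same libraries. The share of all genes with such a separation is not given here. All 3 calls were lost without cKO distal library 1, and on the epithelial scaling only that of Acox2 was kept.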

How the results depend on the processing

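The count of the 32 genes called in cKO against WT in the distal segment was 18, all higher. It was 6 when scaled to the epithelial genes (5 higher, 1 lower), 6 with the mitochondrial share as a covariate, 8 without both cKO libraries numbered 1, 11 in a fit of only the groups compared and 11 to 28 with 1 library left out. The other alternatives gave 14 to 19. Scaled to the epithelial genes, 6 of the 18 changed sign: Cpt1a (-0.015), Acadvl (-0.11), Hadhb (-0.18), Bdh1 (-0.10), Ehhadh (-0.061) and Eci2 (-0.075). That scaling lowers every gene by 0.75 there. The count for distal against proximal tissue in cKO, 14, was 7 without both cKO libraries numbered 1 and 8 to 15 with 1 library left out. For the difference of the genotype effects, 3 in limma, it was 1 on the epithelial scaling, 7 in DESeq2, 2 in edgeR, 0 without both cKO libraries numbered 1 and 0 to 4 with 1 library left out. Over all genes the count for this difference was 96 on the epithelial scaling, 594 in DESeq2 and 82 in edgeR, against 99. It ranged from 2 to 594 between all the alternatives. With the replicate block the count of the 32 was 5, and over all genes 460 in place of 99, and the block moved no other count by over 1.5 times. The count for WT segments, 25, and that for the proximal genotype comparison, 3, stayed within 1.5 times in every alternative run, at 22 to 28 and 2 to 4. On the epithelial scaling the 3 proximal calls were 1 higher and 2 lower (Acot1, Acat1 and Acox2), against 2 higher and 1 lower, with Acadl lost. Where the count fell the cause was not tested, except that fits with libraries left out rest on fewer samples. Over all genes, the distal genotype count of 4297 ranged from 1356 to 6463, the highest being on the epithelial scaling (468 higher and 5995 lower). For the distal genotype comparison, the counts over all genes in the other alternatives are not given here.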
